A study of Mus musculus with 48 samples.

Results

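The 7 genes described here are the mouse immunity-related GTPase genes Irgm1, Irgm2, Igtp, Iigp1, Tgtp1, Tgtp2 and Ifi47, taken from a table of raw counts for 36854 genes by matching each gene's Ensembl identifier to its symbol. All 7 were found. They were named as a gene family, with earlier results of these data known. The table holds bulk RNA-seq of 48 mouse sarcomas in the 129/SvJae strain, 32 primary and 16 allografted. Primary tumours were induced in the gastrocnemius of p53FL/FL mice, which carry conditional alleles of the tumour suppressor p53, by an adenovirus carrying Cre together with 300 µg of the carcinogen MCA when the mice were 6 to 10 weeks old. Allografts grew from 50000 injected cells of 1 line, 402230, in the gastrocnemius of syngeneic hosts, whose age is not given in the sources used here, so that every allograft descends from the same line. At about 150 mm3 each mouse received 200 µg of muDX400, a mouse antibody against the T-cell checkpoint receptor PD-1, or an isotype control antibody, followed at once by 0 or 20 Gy to the left hind limb, and the tumour was taken on day 3. Each of the 4 treatments (isotype with 0 Gy, anti-PD-1 with 0 Gy, isotype with 20 Gy, and both anti-PD-1 and 20 Gy, here called the combination) had 4 allografts and 8 primary tumours. The isotype 0 Gy group is the control of each tumour kind. Titles carry an animal identifier for each tumour, and the p-values measure the spread between animals. Among allografts that is the spread between hosts of 1 line, so tumour kind cannot be told apart from that line.

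Immunity-related GTPases are interferon-induced proteins that defend cells against bacteria and protozoa living inside vacuoles. The effector members bind the membrane of such a vacuole and help to break it, while the regulatory members sit on the cell's own membranes and keep the effectors inactive there. The genes are switched on by interferon gamma, released mainly by T and NK cells, acting in part through gamma-activated sites (GAS) and the transcription factor IRF1, and by type I interferons through interferon-stimulated response elements (ISRE). They are expressed in many cell types once these are exposed to interferon, leukocytes and tumour cells included.

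Of the 3 regulatory members, Irgm1 (chr11:48861968-48871683, minus strand) is needed for resistance to mycobacteria, Irgm2 (chr11:58199618-58222782, plus strand) lies on Golgi membranes, and Igtp (chr11:58199556-58207591, plus strand), also called Irgm3, lies on the endoplasmic reticulum and lipid droplets. Of the 4 effectors, Iigp1 (chr18:60376027-60392634, plus strand), also called Irga6, coats the vacuole of Toxoplasma. Tgtp1 (chr11:48985327-48994172, minus strand) and Tgtp2 (chr11:49057194-49064206, minus strand), together known as Irgb6, are among the first to reach that vacuole. Ifi47 (chr11:49076587-49096974, plus strand), or Irgd, is a further effector. All 7 are protein-coding in GENCODE M21, on the GRCm38 build.

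Tgtp1 and Tgtp2 are near-copies: 73.1% of the 100-base stretches of Tgtp1 transcripts and 76.8% of those of Tgtp2 also occur in transcripts of another gene, mostly each other's, so the counts of each are uncertain. Igtp and Irgm2 share 162 bases of exon on the same strand, which is 8.01% of the exon length of Igtp and 4.39% of that of Irgm2. Irgm1 and Iigp1 share no such stretch with another gene.

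Promoter sequences are shown because the estimates of all 7 genes had the same sign in most comparisons. RefSeq promoters (GRCm38.p6, 250 bases before to 50 after the gene's start) were examined for 6 of the 7 members, and Iigp1 was left out. Both strands were searched for the GAS letters TTCNNNGAA, which read the same on either strand, and the ISRE letters, GAAA followed by any 2 bases and GAAA. In the lines that follow, each a 60-base stretch written 5′ to 3′ along its gene, capitals mark the matches.
Irgm2: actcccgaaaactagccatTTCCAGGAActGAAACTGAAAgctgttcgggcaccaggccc
Igtp: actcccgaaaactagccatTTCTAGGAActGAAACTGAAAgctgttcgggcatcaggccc
Tgtp1: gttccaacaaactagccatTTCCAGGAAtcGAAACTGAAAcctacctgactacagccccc
Tgtp2: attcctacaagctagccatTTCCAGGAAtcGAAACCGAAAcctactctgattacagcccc
Irgm1: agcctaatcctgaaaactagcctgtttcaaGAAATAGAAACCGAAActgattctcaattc

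These stretches lie at chr11:58214883-58214942 (Irgm2), chr11:58199492-58199551 (Igtp), chr11:48992294-48992353 (Tgtp1), chr11:49064253-49064312 (Tgtp2) and chr11:48871421-48871480 (Irgm1). In GENCODE M21 the stretch of Irgm1 falls in an exon of a non-coding transcript of that gene. Those of Irgm2 and Tgtp1 fall in introns of longer transcripts of the same genes, and those of Tgtp1 and Tgtp2 also in introns of Olfr56 on the opposite strand. A GAS match followed by an ISRE match was present in Irgm2, Igtp, Tgtp1 and Tgtp2, with the GAS starting 75, 45, 88 and 81 bases before the gene's start. The stretches of Igtp and Irgm2 were identical at 58 of 60 bases and those of Tgtp1 and Tgtp2 at 46 of 60. Irgm1 had 2 overlapping ISRE matches and no GAS match, and the promoter window of Ifi47 held neither set of letters. Among 32851 RefSeq mouse promoters of this length, 8.30% held the GAS letters, 3.44% the ISRE letters and 0.454% both. A match describes the letters of the reference build, which were not read from the strain of these tumours, and was not tested for binding.

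Libraries held 31.8 to 54.0 M counts per tumour, and the lowest count of any member in any tumour was 41, for Tgtp1 in a primary control. Levels are given as CPM, counts per 1000000 counts of the library, after TMM scaling, which equalises libraries by a trimmed mean of their gene-wise ratios, over the 48 tumours. All 7 members passed the filter on low counts in every fit. All 7 mesenchymal markers exceeded 1 CPM in all 48 tumours, a low threshold that does not test the sarcoma label. The 4 epithelial markers, listed as ones that should be low, summed to 4.10 to 435 CPM. The 8 skeletal muscle markers summed to 13.7 to 81543 CPM. A primary combination tumour, replicate 5, stood apart from its group: its 11 T and NK cell markers summed to 15.1 CPM and its 4 leukocyte markers to 364 CPM, the lowest sums of the 48 tumours. The range of the members' estimates, their summed level and the Tgtp1 share are given with and without it where its group enters.

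Per kilobase of exon, Igtp had the highest mean level of the 7 genes in all 8 groups and Tgtp1 the lowest. In control allografts Igtp stood at 57.2 ± 35.2 CPM per kb and Iigp1 at 53.6 ± 39.5 (SD, n = 4), against 12.2 ± 9.42 for Tgtp1. In control primary tumours the corresponding levels were 19.6 ± 13.4 for Igtp, 12.0 ± 9.49 for Iigp1 and 1.27 ± 1.18 for Tgtp1 (SD, n = 8). Between these in control primary tumours came Ifi47 at 15.8 ± 10.5, Irgm1 at 13.7 ± 7.28, Irgm2 at 12.0 ± 7.59 and Tgtp2 at 7.01 ± 5.67. Neighbours in that order from Igtp down to Tgtp2 differed by less than their SDs.

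Summed over the 7 genes, mean levels stood in the order control primary tumours (297 ± 193 CPM), primary tumours on anti-PD-1 alone (464 ± 238), control allografts (826 ± 524), primary combination (1254 ± 667), irradiated primary tumours (1465 ± 569), allografts on anti-PD-1 alone (1611 ± 357), irradiated allografts (2016 ± 201) and allograft combination (2537 ± 851; SD, n = 4 allografts or 8 primary tumours). The ranges of every pair of neighbours in this order overlapped. Without replicate 5 the primary combination stood at 1410 ± 541 CPM (SD, n = 7), in the same place in the order. The lowest and highest tumours of the series, at 118.5 and 3293 CPM, were a primary control and an allograft of the combination group.

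**Figure D1:**
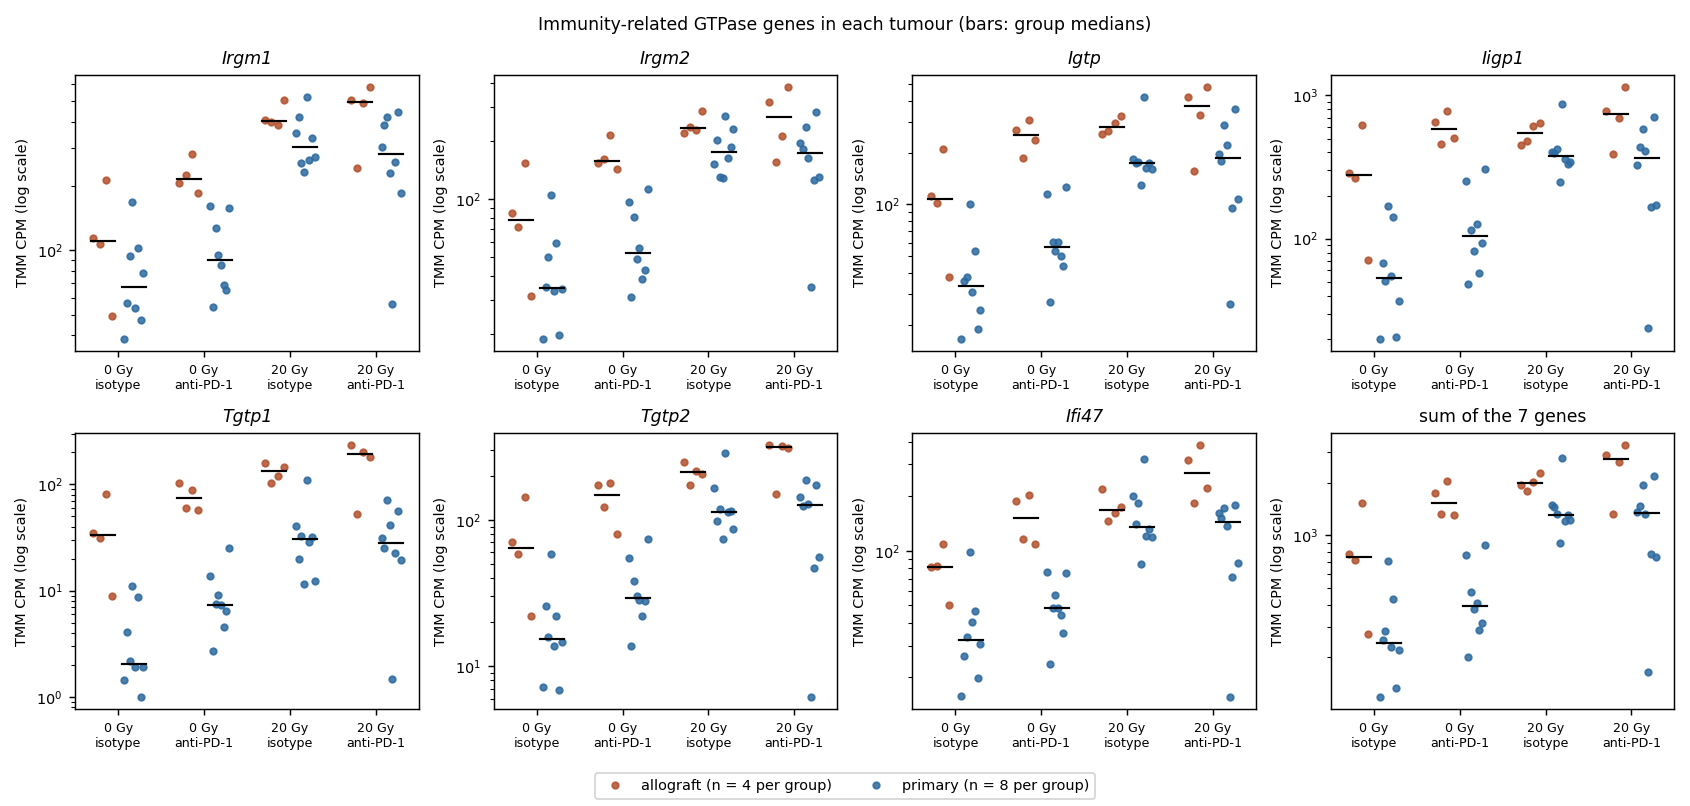
TMM CPM (log scale) of each immunity-related GTPase gene, and of their sum, in each of the 48 tumours by treatment; points are tumours, bars are group medians. Irradiated tumours sit above the controls of their kind for most genes, and 1 primary combination tumour lies near the control level of every gene, with a summed level of 164 CPM.

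**Figure D2:**
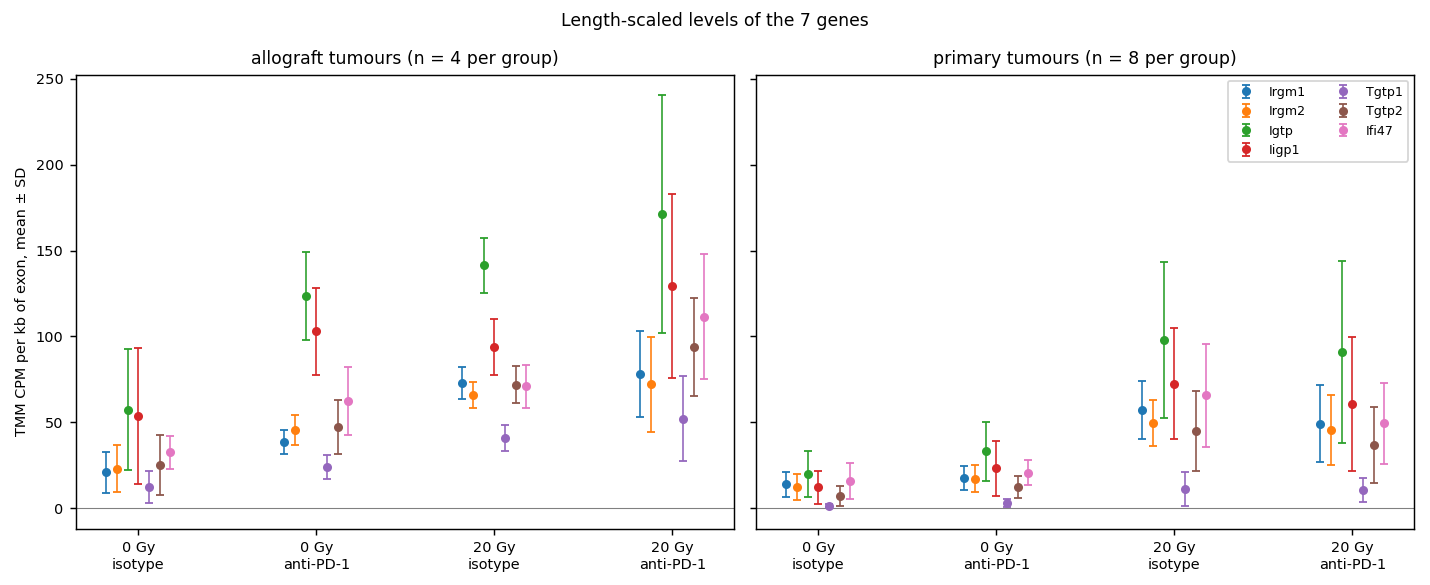
Mean ± SD of TMM CPM per kilobase of exon for the 7 genes in each treatment group (n = 4 allografts or 8 primary tumours). Igtp is highest and Tgtp1 lowest in each group.

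In allografts given the isotype antibody, 20 Gy raised 3 of the 7 genes. Irgm1 stood at 113.5, 106.5, 213 and 49.1 CPM in the 4 controls and at 405, 397, 387 and 506 CPM after irradiation. Every irradiated tumour lay above every control, and the change was 3.58-fold (log2 fold change 1.84 ± 0.36 SE, adjusted p = 0.00929, edgeR quasi-likelihood test). Irgm2, its partner on Golgi membranes, went from 84.1, 71.4, 153 and 31.3 CPM to 221, 237, 228 and 285 CPM, a log2 fold change of 1.54 ± 0.38 (adjusted p = 0.0295). The effector Ifi47 went from 80.8, 82.7, 108.6 and 50.4 CPM to 218, 147, 162 and 174 CPM (log2 fold change 1.14 ± 0.28, adjusted p = 0.0272). Control replicate 3 was the highest and replicate 4 the lowest of the controls for each of these genes.

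The 3 of 7 called higher compare with 4.40% of the 17746 genes tested, and the members' median log2 fold change was 1.54 against -0.0019 over all genes. Groups did not overlap for 6 of 7 members, where 9.59% of genes were higher without overlap, and the exception was Iigp1. Iigp1 stood at 287, 266, 624 and 70.6 CPM in controls and 451, 480, 611 and 641 CPM after irradiation, and its log2 fold change of 0.83 ± 0.47 had an adjusted p of 0.382. Igtp (1.33 ± 0.41, adjusted p = 0.0773), Tgtp2 (1.54 ± 0.43, adjusted p = 0.0518) and Tgtp1 (1.77 ± 0.52, adjusted p = 0.0637) also missed the threshold. In a bulk tumour, more cells of a type that expresses a gene and more RNA per cell cannot be told apart. Leukocyte markers moved with these genes: their summed level was 503 to 1027 CPM in controls and 1319 to 1960 CPM after irradiation, and all 4 rose. Of 11 T and NK cell markers 2 rose (Gzmb and Ncr1), with sums of 77.2 to 251 CPM in controls and 273 to 394 CPM after irradiation. Cd3d, Cd3e, Cd3g, Trac, Cd8a and Cd4 were not called, with log2 fold changes of -0.46 (Cd3d) to 0.42 (Cd4). Of 7 macrophage markers 2 rose, with sums of 1376 to 2096 CPM and 2496 to 3880 CPM, and of 6 neutrophil and monocyte markers 1 rose, with sums of 219 to 457 CPM and 530 to 796 CPM. Of 5 endothelial markers Kdr rose (log2 fold change 1.22, adjusted p = 0.0204), with sums of 204 to 344 CPM and 243 to 436 CPM. No marker of these lists was at 0 in all tumours, and their part in the result was not tested. Without control replicate 3, 6 members were called, and without each of the other 7 tumours in turn 1 or 2 were, Irgm1 always among them, while DESeq2 called 6. Animal identifiers in the titles began with 5 in all 4 controls and with 4 in 3 of the 4 irradiated allografts, and with that digit as a covariate 0 members were called.

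In allografts that had received anti-PD-1, 20 Gy gave positive log2 fold changes for all 7 members, from 0.36 to 1.14, and none was called, against 3.13% of genes called higher. At an unadjusted p under 0.05 edgeR counted 4 of 7, against 3458 of the 17746 genes tested, and DESeq2's Wald test called 2. Ifi47 came nearest, at 188, 115.6, 204 and 108.5 CPM with anti-PD-1 alone and 316, 184, 382 and 221 CPM with the combination (log2 fold change 0.86 ± 0.27, adjusted p = 0.0956). These ranges overlapped.

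Anti-PD-1 alone left the allograft members above their controls in the mean, by log2 fold changes of 0.89 to 1.09 with SEs of 0.28 to 0.51. None was called, and neither was any of the 17746 genes (0%). Unadjusted p was under 0.05 in edgeR for 4 of 7, against 299 of the 17746 genes, and DESeq2 called 0. Igtp, at 269, 186, 308 and 235 CPM against 112.1, 102.5, 210 and 37.8 CPM in controls, had the highest estimate, and 1 control reached above the lowest treated tumour. Adding anti-PD-1 to 20 Gy gave log2 fold changes of 0.08 (Irgm1) to 0.63 (Ifi47), with 0 of 7 called in edgeR and 0% of all genes called. In edgeR 1 of 7 had an unadjusted p under 0.05, against 682 of the 17746 genes, and DESeq2 called 0.

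The allograft combination differed from the control in 6 of 7 members, all higher, where 7.43% of genes were called higher. Ifi47 rose 3.41-fold (log2 fold change 1.77 ± 0.28, adjusted p = 0.00182) and Irgm1 3.78-fold (1.92 ± 0.36, adjusted p = 0.00467). Combination levels of Irgm1 were 503, 242, 486 and 580 CPM, and the lowest of them, replicate 2, still exceeded the highest control of 213 CPM. Tgtp1 had the largest estimate, 2.10 ± 0.53 (adjusted p = 0.0195), from 35.1, 31.0, 81.1 and 8.99 CPM to 233, 52.9, 201 and 180 CPM, and these groups overlapped. Tgtp2 (1.91 ± 0.44, adjusted p = 0.0124), Irgm2 (1.66 ± 0.38, adjusted p = 0.0129) and Igtp (1.59 ± 0.41, adjusted p = 0.0236) were called too. Iigp1 was not, at 1.28 ± 0.48 (adjusted p = 0.106). Groups did not overlap for 4 members, Irgm1, Irgm2, Tgtp2 and Ifi47, against 8.94% of genes. T and NK cell markers summed to 77.2 to 251 CPM in controls and 430 to 773 CPM in the combination, 4 of 11 rose, all 4 leukocyte markers rose, as did 5 of 7 macrophage, 3 of 6 neutrophil and monocyte and 1 of 5 endothelial markers (Kdr), and their part in the result was not tested. Without control replicate 3 Iigp1 was called too (1.88, adjusted p = 0.0159), without control replicate 1 or 2 Igtp and Tgtp1 were lost, and without combination replicate 4 Igtp was. Fitting only these 2 groups called 2 members and fitting all 48 tumours together called 3.

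In primary tumours given the isotype antibody, 20 Gy raised all 7 members, between 4.16-fold and 8.97-fold, where 7.85% of the 17770 genes tested were called higher. The members' median log2 fold change was 2.33 against -0.02 over all genes. Among the regulators, Irgm1 ranged from 38.5 to 168 CPM (median 67.3) in the 8 controls and from 232 to 522 CPM (median 304) after irradiation, a log2 fold change of 2.07 ± 0.33 (adjusted p = 0.000122). Irgm2 ranged from 18.9 to 104.8 CPM (median 34.4) and from 128.01 to 270 CPM (median 175), with a log2 fold change of 2.06 ± 0.35 (adjusted p = 0.000212). For Igtp the 2 ranges were 16.6 to 100 CPM (median 33.4) and 129 to 422 CPM (median 174), with a log2 fold change of 2.33 ± 0.41 (adjusted p = 0.000326). The lowest irradiated tumour lay above the highest control for each of these 3 genes.

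Among the effectors, Tgtp1 had the largest estimate: it ranged from 1.01 to 11.1 CPM (median 2.06) in controls and from 11.6 to 110.8 CPM (median 30.5) after irradiation (log2 fold change 3.16 ± 0.61, adjusted p = 0.000721). Tgtp2 rose by a log2 fold change of 2.70 ± 0.49 (adjusted p = 0.000401), from a median of 15.2 CPM to 113.8 CPM. Counted as 1 gene, Tgtp1 and Tgtp2 rose by 2.78 (adjusted p = 0.000409). Iigp1 ranged from 20.1 to 169 CPM in controls (median 53.0) and from 247 to 868 CPM after 20 Gy (median 378), with a log2 fold change of 2.60 ± 0.51 (adjusted p = 0.000909). For Ifi47, 7 of 8 irradiated tumours exceeded the highest control of 98.3 CPM (log2 fold change 2.07 ± 0.38, adjusted p = 0.000431). The other 6 members did not overlap between groups, against 1.50% of genes higher without overlap.

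The same 7 were called in each fit that left out 1 primary tumour. The irradiated tumour replicate 5 was the highest for all 7 members, with a summed level of 2800 CPM, and also had the highest T and NK cell marker sum of its group, 498 CPM. Leukocyte marker sums were 429 to 710 CPM in controls and 707 to 1749 CPM after irradiation, and all 4 markers rose. Of 11 T and NK cell markers 2 rose (Klrk1 and Gzmb). Cd3d, Cd3e, Cd3g, Trac, Cd8a and Cd4 were not called, with log2 fold changes of 0.44 (Cd8a) to 1.31 (Cd3d). Of 7 macrophage markers 3 rose (Fcgr1, Cd68 and C1qa), with sums of 1487 to 2875 CPM in controls and 1806 to 3632 CPM after irradiation. Of 6 neutrophil and monocyte markers 3 rose (Ly6c2, Csf3r and Ccr2), with sums of 75.8 to 264 CPM and 163 to 1163 CPM. Of 7 mesenchymal markers Vim, which encodes the filament protein vimentin, fell by 0.72 on the log2 scale (adjusted p = 0.0124), and of 4 epithelial markers Krt18 fell by 3.06 (adjusted p = 0.0112). Their part in the result was not tested.

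Primary tumours on anti-PD-1 also held more of 6 members after 20 Gy, where 6.06% of genes were called higher, with log2 fold changes for the 7 between 1.27 and 1.82. Irgm1 went from a range of 54.2 to 161 CPM (median 90.1) to 55.9 to 444 CPM (median 282), a log2 fold change of 1.50 ± 0.32 (adjusted p = 0.00478). Irgm2 followed with 1.42 ± 0.34 (adjusted p = 0.0101) and Igtp with 1.47 ± 0.40 (adjusted p = 0.0219). Adjusted p was 0.0322 for Ifi47 (1.27 ± 0.37), 0.0331 for Tgtp2 (1.60 ± 0.47), 0.0476 for Tgtp1 (1.82 ± 0.58) and 0.0770 for Iigp1 (1.40 ± 0.49). The ranges overlapped for all 7. Replicate 5 of the combination was the lowest of its group for every member, with 23.9 CPM of Iigp1, 6.18 CPM of Tgtp2 and 15.6 CPM of Ifi47, below every tumour on anti-PD-1 alone. Without it all 7 were called, with log2 fold changes of 1.43 to 2.00, Iigp1 at 1.58 (adjusted p = 0.0211). Leaving out replicate 7 of the combination left 2, leaving out its replicates 3 or 4, or replicates 2, 3, 5, 6 or 7 of anti-PD-1 alone, left 3, and Irgm1 and Irgm2 kept their call in each of these fits. Without replicate 1 or 4 of anti-PD-1 alone or replicate 6 of the combination, Tgtp1 was lost. Of the markers, 1 of 4 for leukocytes and 2 of 11 for T and NK cells (Gzmb and Prf1), 2 of 7 for macrophages and 2 of 6 for neutrophils and monocytes rose, Vim fell by 0.76 on the log2 scale, and their part was not tested. The fit of only these 2 groups called 2, and the identifier digit as a covariate left 3.

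The primary combination stood above the control for all 7 members, where 8.78% of genes were called higher. The fold changes ran from 3.16 for Ifi47 (log2 1.66 ± 0.38, adjusted p = 0.00349) to 8.35 for Tgtp1 (log2 3.06 ± 0.61, adjusted p = 0.00116). Iigp1 ranged from 23.9 to 707 CPM (median 368) in the combination, a log2 fold change of 2.35 ± 0.51 (adjusted p = 0.00250), or 2.53 (adjusted p = 0.000319) without replicate 5. All 7 were called in each fit that left out 1 tumour. Without replicate 5 the 7 estimates ran from 1.83 to 3.25. The summed level of the 7 was 756 to 2199 CPM in the other 7 tumours of the group. Of the markers, 3 of 4 for leukocytes, 0 of 11 for T and NK cells, 2 of 7 for macrophages and 4 of 6 for neutrophils and monocytes rose, Vim fell by 0.82 on the log2 scale, and their part was not tested.

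Anti-PD-1 made no detectable difference to the 7 genes in primary tumours. Without radiation the log2 fold changes were 0.35 (Irgm1) to 1.24 (Tgtp1), with SEs of 0.32 to 0.57. None was called in edgeR, as was true of all genes (0%). Of the 7, 1 had an unadjusted p under 0.05, against 412 of the 17770 genes tested, and DESeq2 called 0. Tgtp1 ranged from 2.69 to 25.3 CPM (median 7.40) on anti-PD-1 alone against 1.01 to 11.1 CPM (median 2.06) in controls. At 20 Gy the log2 fold changes of adding anti-PD-1 ran from -0.42 to -0.10, with 0 of 7 called, 0% of all genes called, 0 at an unadjusted p under 0.05, and 0 by DESeq2. Without replicate 5 of the combination they ran from -0.25 to 0.08.

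Whether the response to 20 Gy differed with the antibody was tested as an interaction. Estimates were negative for all 7 members in both kinds, -0.85 to -0.28 in allografts and -1.34 to -0.57 in primary tumours, with SEs of 0.39 to 0.80. In either kind 0 members were called in edgeR, 0 had an unadjusted p under 0.05 and 0 were called by DESeq2, and 0% of all genes were called. Without replicate 5 of the primary combination the estimates in primary tumours ran from -1.16 to -0.41, with 0 called.

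**Figure D3:**
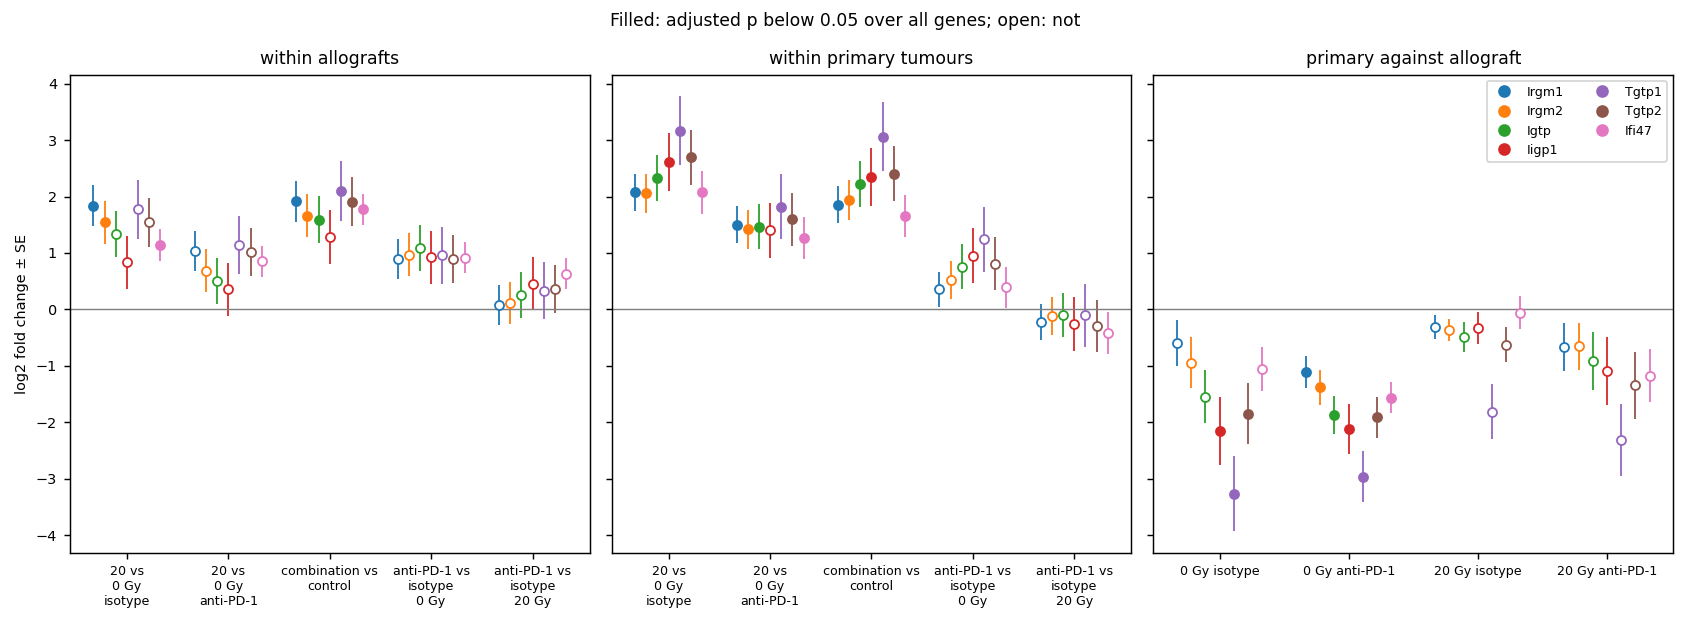
Log2 fold change ± SE (edgeR) of each immunity-related GTPase gene in each comparison; filled points passed an adjusted p of 0.05 over all genes, open points did not. All 7 genes are filled for primary tumours at 20 Gy with the isotype antibody and for the primary combination against control, and for primary against allograft tumours on anti-PD-1 alone, where all lie below 0.

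On anti-PD-1 alone all 7 members were lower in primary tumours, with no overlap between the groups, where 3.99% of genes were called lower and 2.80% were lower without overlap. Igtp stood at 26.9 to 125.5 CPM (median 56.8) in the primary tumours and at 269, 186, 308 and 235 CPM in the allografts, a log2 difference of -1.86 ± 0.34 (adjusted p = 0.00618). Iigp1 had 48.1 to 307 CPM (median 104.1) against 650, 455, 783 and 508 CPM (log2 difference -2.12 ± 0.44, adjusted p = 0.0115). Ifi47 differed by -1.56 ± 0.28 (adjusted p = 0.00620), Irgm2 by -1.38 ± 0.31 (adjusted p = 0.0176) and Irgm1 by -1.12 ± 0.28 (adjusted p = 0.0284). Tgtp1 differed by -2.97 ± 0.45 (adjusted p = 0.00295) and Tgtp2 by -1.91 ± 0.37 (adjusted p = 0.00804), or by -2.21 (adjusted p = 0.00506) when counted as 1 gene. Without allograft replicate 3 Irgm1 and Irgm2 were lost, and without allograft replicate 1 or 2 or primary replicate 5 Irgm1 was. The skeletal muscle level as a covariate left 3 members called (Igtp, Tgtp1 and Ifi47) and the identifier digit left Tgtp1 alone. In every comparison of kinds, tumour kind cannot be told apart from the line that all allografts share.

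Among isotype controls, 3 effectors were lower in primary tumours, against 3.99% of genes. They were Tgtp1 (log2 difference -3.26 ± 0.66, adjusted p = 0.00913), Iigp1 (-2.15 ± 0.60, adjusted p = 0.0386) and Tgtp2 (-1.84 ± 0.54, adjusted p = 0.0469). Igtp had an estimate of -1.54 ± 0.47 (adjusted p = 0.0560), and the estimate nearest 0 was that of Irgm1, -0.60 ± 0.41 (adjusted p = 0.379). All 7 ranges overlapped. Without replicate 4 of the primary controls, the highest of its group for all 7, 5 members were called. Without replicate 4 of the allograft controls 4 were, without replicate 6 of the primary controls 2, and without each of the other 9 tumours 1, which was Tgtp1. With Xist above 10 CPM as a covariate 1 was called, and the identifier digit could not be fitted, since it was 5 in every control allograft and 4 in every control primary tumour and cannot be told apart from the tumour kind there.

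After 20 Gy the kinds did not differ detectably in any member with the isotype antibody, where 2.40% of genes were called lower, nor with anti-PD-1, where 0.00566% were. With the isotype the estimates ran from -1.81 (Tgtp1) to -0.06 (Ifi47). In edgeR 1 of 7 had an unadjusted p under 0.05, against 3508 of the 17624 genes tested, and DESeq2 called 1. Without replicate 5 of the irradiated primary tumours 3 were called, Tgtp1 at -2.31 (adjusted p = 0.00308), Igtp at -0.74 (adjusted p = 0.00895) and Tgtp2 at -0.89 (adjusted p = 0.0307). With anti-PD-1 the estimates ran from -2.31 to -0.66, or from -2.12 to -0.50 without replicate 5 of the primary combination, with 0 called in both. With all tumours, 3 of 7 had an unadjusted p under 0.05 in edgeR, against 2965 of the 17674 genes tested, and DESeq2 called 1. Ifi47 alone was lower without overlap, against 1.06% of genes. Of 11 T and NK cell markers, 4 were lower in primary tumours among the isotype controls and 6 on anti-PD-1 alone, with sums of 44.2 to 203 CPM in primary tumours and 164 to 452 CPM in allografts on anti-PD-1 alone. Of 4 leukocyte markers Cd52 was lower in both, and of 6 neutrophil and monocyte markers Csf3r and Ccr2 were lower among the isotype controls and 0 on anti-PD-1 alone. Of 7 macrophage markers Mrc1 was higher in primary tumours among the isotype controls (log2 difference 1.43, adjusted p = 0.0118) and 0 were called on anti-PD-1 alone. Of 7 mesenchymal markers Col1a2 was higher in both and Pdgfrb among the isotype controls. At 20 Gy with the isotype Mrc1 was higher and the epithelial marker Krt18 lower. The part of these markers in the differences was not tested.

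The change with radiation was not shown to differ between the kinds. With the isotype antibody the interaction estimates (primary less allograft) ran from 0.24 for Irgm1 to 1.78 for Iigp1, and Iigp1 had an SE of 0.79 and an adjusted p of 0.486. None of the 7 was called, against 0.00517% of the 19327 genes tested. In edgeR 1 of 7 had an unadjusted p under 0.05, against 1914 of those genes, and DESeq2 called 0. With anti-PD-1 the estimates ran from 0.41 to 1.06, or from 0.58 to 1.24 without replicate 5 of the primary combination. With all tumours, in that test, in both tests of antibody by kind and in the test of the combination by kind, 0 members were called in edgeR, 0 had an unadjusted p under 0.05, 0 were called by DESeq2, and 0% of all genes were called. The estimates for antibody by kind at 20 Gy ran from -1.07 to -0.25, or from -0.91 to -0.10 without that tumour, and those for the combination by kind from -0.13 to 1.06, or from 0.06 to 1.26. Without it 0 members were called in the interaction tests that include its group.

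Tgtp1 and Tgtp2, the near-copies, divided their counts differently in the 2 kinds of tumour. Tgtp1 made up 33.2 ± 3.16% of the summed CPM of both in control allografts (SD, n = 4) and 15.4 ± 5.56% in control primary tumours (SD, n = 8). On anti-PD-1 alone the shares were 36.1 ± 4.13% and 19.8 ± 3.27%, after 20 Gy 38.3 ± 2.33% and 19.3 ± 4.92%, and in the combination 35.9 ± 6.81% and 23.6 ± 5.37%. The ranges did not overlap in the first 3 treatments and did in the combination. By an exact two-sided permutation test the difference had p = 0.00404 in each of the first 3, the smallest that 4 against 8 tumours can give, and p = 0.0121 in the combination, with adjusted p over these 4 tests of 0.00539 and 0.0121. Without replicate 5 the share in the primary combination was 24.2 ± 5.49% (SD, n = 7), and the difference had p = 0.0182 by the same exact test. This comparison was chosen after the values were seen, and tumour kind cannot be told apart here from the line that all allografts share. Since most of the sequence of both genes is the same, how reads were assigned to them bears on these shares, and the counting rule for reads that match both is not given in the sources used here.

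**Figure D4:**
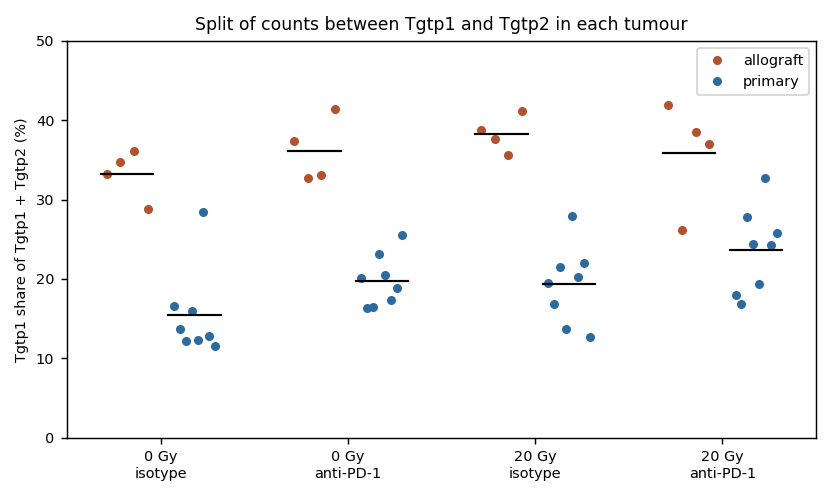
Share of the summed Tgtp1 and Tgtp2 TMM CPM that was counted for Tgtp1, in percent, in each tumour; bars are group means. Shares were 26.2 to 41.9% in allografts and 11.6 to 32.7% in primary tumours.

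The 7 genes varied together from tumour to tumour within a group. After subtracting the group mean from log2 CPM, the correlation between 2 members over the 48 tumours ranged from 0.83 to 0.97 over the 21 pairs, with a median of 0.92, as a description with no test. It ranged from 0.86 to 0.97 within the 32 primary tumours and from 0.57 to 0.98 within the 16 allografts. Members read from the same library share its depth and cell mixture.

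Among the 10 genes outside the 7 with the pattern most like the members' mean, by the same group-centred correlation over 48 tumours, were Gm12250 (r = 0.97), a further immunity-related GTPase gene, Gbp6 (0.95), Gbp2b (0.95), Tap1 (0.94), Gm12185 (0.93), Gbp5 (0.93), Gbp2 (0.92), Gm4951 (0.92) and Cxcl9 (0.92). Gbp genes encode guanylate-binding proteins, a second family of interferon-induced GTPases. Tap1 is a peptide transporter for antigen presentation, and Cxcl9 is a chemokine that attracts activated T cells. Gm12185 shares 223 bases of exon with Tgtp1, and how reads there were counted is not given in the sources used here. The correlation with Ifng was 0.76 (Spearman's rho 0.78, and r = 0.77 without the 2 tumours farthest from the median of Ifng), and with Irf1 0.87 (rho 0.84, and r = 0.83 without 2). For the receptor genes it was 0.18 for Ifngr1 (rho 0.04, and r = -0.06 without 2) and 0.08 for Ifngr2 (rho 0.08, and r = 0.06 without 2). For Cd3e, a T-cell marker, it was 0.69 (rho 0.65, and r = 0.62 without 2), and for the muscle gene Ckm 0.10 (rho 0.01, and r = -0.07 without 2). It was 0.64 for the leukocyte marker Ptprc (rho 0.60, and r = 0.56 without 2) and 0.53 for the macrophage marker Adgre1 (rho 0.32, and r = 0.28 without 2). Cd8a, of cytotoxic T cells, gave 0.69 (rho 0.68, and r = 0.67 without 2). For Irf7, a transcription factor of the type I interferon response, it was 0.70 (rho 0.59, and r = 0.55 without 2), and for the ligand gene Ifnb1 0.29 (rho 0.16, and r = 0.20 without 2). By kind of tumour, for Cd3e r was 0.73 in the 32 primary tumours (0.68 without 2) and 0.42 in the 16 allografts (0.20 without 2), and for Ifng it was 0.76 (0.77 without 2) and 0.74 (0.62 without 2). Cd8a gave 0.75 in primary tumours (0.76 without 2) and 0.28 in allografts (-0.03 without 2), and Adgre1 0.63 (0.27 without 2) and 0.17 (0.43 without 2). Chosen within the primary tumours alone, 9 of the 10 most alike genes were the same, and within the allografts alone 5 were.

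**Figure D5:**
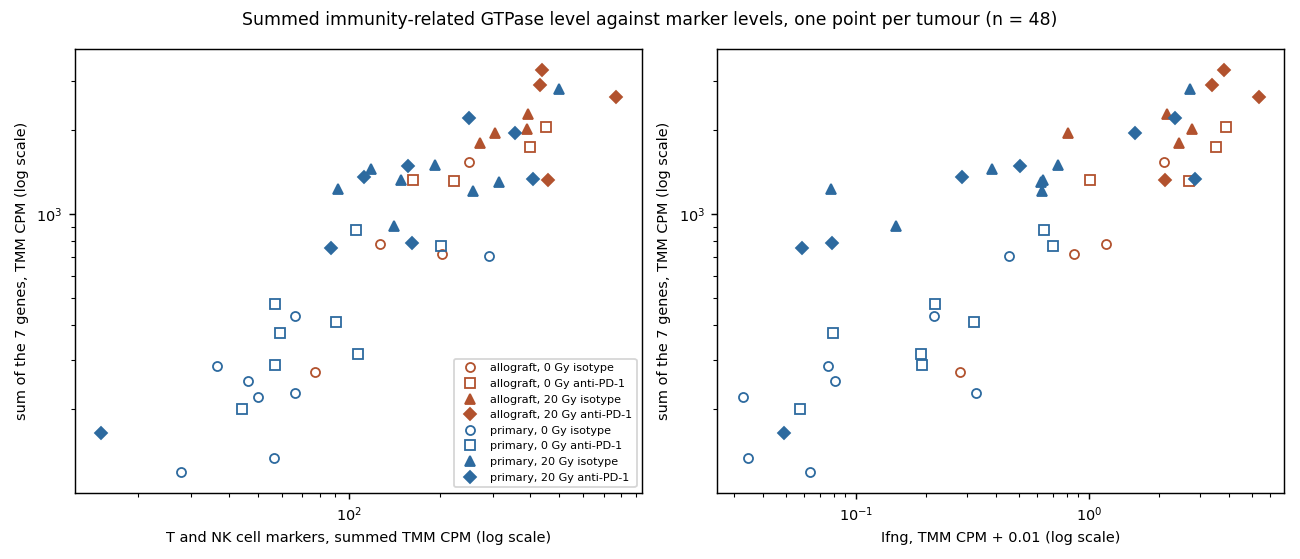
Summed TMM CPM of the 7 genes against the summed T and NK cell markers and against Ifng (all axes log scale) in each of the 48 tumours. The primary combination tumour with the lowest marker sum, 15.1 CPM, had a summed member level of 164 CPM, and the irradiated primary tumour with a marker sum of 498 CPM had 2800 CPM.

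Upstream, Ifng, the gene of the ligand interferon gamma, had counts as low as 1 in primary controls, at 0.0227 to 0.443 CPM (median 0.0688). In allograft controls Ifng stood at 0.269 to 2.09 CPM (median 1.01). It was lower in primary than in allograft tumours at 0 Gy, by -2.86 ± 0.70 on the log2 scale with the isotype (adjusted p = 0.0227) and by -3.19 ± 0.59 on anti-PD-1 (adjusted p = 0.00692). Within a kind it was called only in the primary combination against control (2.66 ± 0.83, adjusted p = 0.0302). With 20 Gy and the isotype it had estimates of 2.29 ± 0.82 in primary tumours (adjusted p = 0.0586) and 0.92 ± 0.55 in allografts (adjusted p = 0.413). Ifnb1, a ligand gene of the type I interferons, was called higher in both, by 2.53 ± 0.72 (adjusted p = 0.0171) and 2.83 ± 0.72 (adjusted p = 0.0329). With 20 Gy on anti-PD-1, Ifnb1 rose in allografts (3.14 ± 0.74, adjusted p = 0.0302) and was not called in primary tumours (1.74 ± 0.73, adjusted p = 0.146). The receptor genes Ifngr1 and Ifngr2 were not called in any comparison within a kind or between kinds at 0 Gy, with estimates for 20 Gy and the isotype of 0.24 ± 0.23 and 0.17 ± 0.11 in primary tumours. Irf1, an interferon-induced transcription factor, rose by 1.51 ± 0.28 (adjusted p = 0.000431) in irradiated primary tumours, and its estimate of 0.93 ± 0.27 in irradiated allografts missed the threshold (adjusted p = 0.0617).

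Of 11 genes of interferon gamma signalling, 6 rose and 0 fell in irradiated primary tumours with the isotype, with a median log2 fold change of 1.15, and 2 rose in irradiated allografts, with a median of 0.92, beside members' medians of 2.33 and 1.54. Over all genes 7.85% and 4.40% were called higher. Of 10 type I interferon genes, 8 and 7 rose and 0 fell. Of 11 guanylate-binding protein genes, all 11 rose in the primary tumours, Gbp5 by 2.77 (adjusted p = 4.33e-05) among them, and 6 rose in the allografts. Of 9 other immunity-related GTPase genes, 8 rose in primary tumours and 6 in allografts. Gm5431 rose in both, by 1.93 ± 0.30 (adjusted p = 8.43e-05) and 2.19 ± 0.37 (adjusted p = 0.00368). In irradiated allografts on anti-PD-1, none of the 7 members was called, and 3.13% of all genes were called higher. Of the 9, Gm5431 (1.82 ± 0.36, adjusted p = 0.0140), 9930111J21Rik1 (1.44 ± 0.34, adjusted p = 0.0288) and 9930111J21Rik2 (1.37 ± 0.33, adjusted p = 0.0307) rose there, and the rest were not called. Irgq, a relative of this family, was called in none of the comparisons within a kind.

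Partners of the GTPases were counted for comparison. The regulators and effectors depend on the conjugation machinery of autophagy, whose genes Atg3, Atg5, Atg7, Atg12 and Atg16l1 are needed to load the effectors onto vacuoles. Of 13 vacuole-loading and autophagy genes, 1 rose and 1 fell in irradiated primary tumours with the isotype. Trim21, a ubiquitin ligase, rose by 1.34 ± 0.22 (adjusted p = 0.000130), and Gabarapl1, which encodes a protein conjugated to autophagic membranes, fell by 0.45 on the log2 scale (adjusted p = 0.0278). Over all genes 7.85% were called higher and 6.64% lower. In irradiated allografts Trim21 was the 1 called, at 1.38 ± 0.25 (adjusted p = 0.00538), against 4.40%. On anti-PD-1, 20 Gy raised 4 of the 13 in primary tumours, against 6.06% of genes: Trim21 (0.98), Sqstm1 (0.47), Traf6 (0.42) and Atg7 (0.38). The same 4 rose in the primary combination, against 8.78%. With 20 Gy on anti-PD-1, Trim21 alone rose in allografts, against 3.13% of genes, and in the allograft combination Trim21 and Atg7 rose, against 7.43%. With 20 Gy and the isotype, the median log2 fold change of these 13 genes was 0.17 in the primary tumours and 0.16 in the allografts, beside 2.33 and 1.54 for the 7 members.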

How the data were processed

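RNA was sequenced from poly(A)-selected, stranded libraries of 48 tumours. Per the submitters' processing notes, reads were processed with Trimmomatic 0.36, STAR and HTSeq on mm10; the annotation and strand setting are not given in the sources used here. The authors deposited raw read counts per gene for 36854 Ensembl identifiers, of which 36796 were named with GENCODE M21, and 58 without a name stayed in the fits. Each column was matched to its sample by title.

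Low counts were removed by filterByExpr, libraries scaled by TMM, and fold changes tested with edgeR 4.0.16 (R 4.3.3) by the quasi-likelihood F-test, with Benjamini-Hochberg adjustment over all genes tested and a threshold of 0.05. Comparisons within a kind used that kind's 4 groups, comparisons between kinds the 2 groups compared, and interactions by kind all 48 tumours. Comparisons with the same control group share its tumours. SEs were derived from each estimate and its F value. The alternatives were DESeq2 1.42.0, its size factors, no filter, other sample sets, covariates, leaving out each tumour, and, chosen after seeing the data, Tgtp1 and Tgtp2 summed. The members, the lists and the alternatives were chosen with earlier results of these data known. Genes most alike were the 10 with the highest group-centred correlation with the members' mean log2 CPM (prior count 2); 1 of them is not reported here.

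Libraries held 31.8 to 54.0 M counts. On simulated counts for 20 against 0 Gy with the isotype, 92% of 50 genes raised by a log2 fold change of 2 were called in allografts (17539 genes in the fit) and 80% in primary tumours (17629 genes). At a log2 fold change of 1 these shares were 32% and 62%. No 2 tumours of a group agreed within sampling noise.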

Additional observations from a re-analysis of the deposited data

Results flagged for a closer look

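Among 56 pairs of a member and a group, 10 held a tumour far from the rest of its group by Dixon's criterion, where chance at 1 in 20 would give 2.8; the members vary together, so these are not separate events. Irradiated primary tumour replicate 5 was the highest of 8 for Igtp (422 CPM, the next 183), Iigp1 (868 CPM, the next 424), Tgtp1 (110.8 CPM, the next 40.3) and Tgtp2 (287 CPM, the next 166). The same tumour had 498 CPM of summed T and NK cell markers and 2.71 CPM of Ifng, each the highest of its group. Primary control replicate 4 was the highest of 8 for Irgm2 (104.8 CPM, the next 58.9), Igtp (100.1 CPM, the next 53.4), Tgtp2 (58.6 CPM, the next 25.7) and Ifi47 (98.3 CPM, the next 46.7). It had 293 CPM of summed T and NK cell markers and 0.443 CPM of Ifng, also the highest of its group. Irradiated allograft replicate 4 was the highest of 4 for Irgm1 (506 CPM, the next 405). Allograft combination replicate 2 was the lowest of 4 for Tgtp2 (149 CPM, the next 308). The part of the markers in these values was not tested.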

How the results depend on the processing

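No fold change of a member that was called changed sign in any alternative run. The 7 calls for primary tumours at 20 Gy with the isotype, and for the primary combination, held in every alternative; with Tgtp1 and Tgtp2 summed they were 6 of 6. Other counts of members called depended on the setting. DESeq2 called 6 for allografts at 20 Gy with the isotype, 2 for allografts at 20 Gy on anti-PD-1, 1 for each comparison of kinds at 20 Gy, 4 for kinds among isotype controls, and 7 for both the allograft combination and primary tumours at 20 Gy on anti-PD-1, and its size factors in edgeR gave 1 for kinds at 20 Gy with the isotype. The identifier digit as a covariate gave 0 for allografts at 20 Gy with the isotype, 3 for primary tumours at 20 Gy on anti-PD-1 and 1 for kinds on anti-PD-1 alone. All 48 tumours in 1 fit gave 1 for allografts at 20 Gy with the isotype, 3 for the allograft combination and 1 for kinds in the combination. Only the 2 groups compared gave 2 for the allograft combination and 2 for primary tumours at 20 Gy on anti-PD-1. The skeletal muscle covariate gave 3 for kinds on anti-PD-1 alone, and the Xist covariate 1 for kinds among isotype controls.

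Leaving out 1 tumour at a time gave 1 to 6 members for allografts at 20 Gy with the isotype, 4 to 7 for the allograft combination, 2 to 7 for primary tumours at 20 Gy on anti-PD-1, 1 to 5 for kinds among isotype controls, 5 to 7 for kinds on anti-PD-1 alone and 0 to 3 for kinds at 20 Gy with the isotype. It gave 7 to 7 for primary tumours at 20 Gy with the isotype and for the primary combination, and 0 to 0 for the other comparisons. Of the 10 genes most alike, 6 were shared when Spearman's rho replaced Pearson's r and 9 without centring. Within the 32 primary tumours 9 were shared by Pearson's r and 7 by Spearman's rho, and within the 16 allografts 5 and 2. Leaving replicate 5 out of the primary combination moved the Tgtp1 share and the summed level of the members by less than 1 SD, a setting chosen after seeing the data. No paired analysis was made, since the titles give a different animal identifier for each tumour. The replicate numbers used here only name the samples.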
